A study of Mus musculus with 12 samples.

Results

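Collagens are the structural proteins of connective tissue, and the genes that encode their chains were followed here through 4 treatment groups of an osteoblast line. The members were chosen by gene symbol alone, as every entry named Col, a number, a and a second number, which gave 44 of the 56691 gene entries. By the kind of assembly their proteins form, 11 were fibrillar, 9 network-forming, 9 FACIT (fibril-associated collagens with interrupted helices), 6 beaded-filament (type VI) and 9 of other kinds. The cells were MC3T3-E1, a wild-type mouse calvarial pre-osteoblast line, kept until day 28 in osteogenic medium. In all groups this medium held dexamethasone at 0.1 µM, ascorbic acid at 50 µg/ml and beta-glycerophosphate (BGP, which supplies phosphate for mineral) at 10 mM. From day 27 one group was left as control, and the others received for 24 h either 100 µM 25(OH)D (25-hydroxyvitamin D, the circulating precursor of the active hormone), the same with a further 4 mM BGP, or the same with 100 µM ZK191784, a synthetic ligand of the vitamin D receptor. The dose unit of 25(OH)D is given as labelled and could not be checked. There were 3 libraries per group, made by a 3′ mRNA-seq kit. Separate cultures are not named in the labels, so the tests see only library-to-library spread, which may be technical.

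A collagen molecule is built of chains that wind around each other into a helix after prolyl hydroxylation, which needs the ascorbic acid of the medium. Type I collagen, encoded by Col1a1 and Col1a2, makes up most of the organic matrix of bone, and the minor fibrillar types V and XI are incorporated into its fibrils and limit their diameter. Type II is the main collagen of cartilage, type IV forms the sheet of basement membranes, type VI forms beaded filaments close to cells, and FACIT chains sit on the surface of fibrils.

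Collagen messages made up a large part of the libraries and a smaller one with 25(OH)D. The 44 genes together took 4.00, 4.35 and 5.61% of all counts in the control libraries, 1.46, 1.18 and 0.850% with 25(OH)D, 0.858, 1.29 and 0.930% with 25(OH)D plus BGP, and 3.36, 3.10 and 2.32% with 25(OH)D plus ZK191784. The groups without ZK191784 that received 25(OH)D lay below every other library, and the ZK191784 libraries lay between them and control. Col1a1 and Col1a2 held 89.7% ± 0.145 of the collagen counts in control, 81.9% ± 0.543 with 25(OH)D, 82.6% ± 1.67 with added BGP and 88.7% ± 0.675 with ZK191784 (SD, n = 3 each). In bulk libraries fewer cells of a type and less RNA per cell cannot be told apart.

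**Figure D1:**
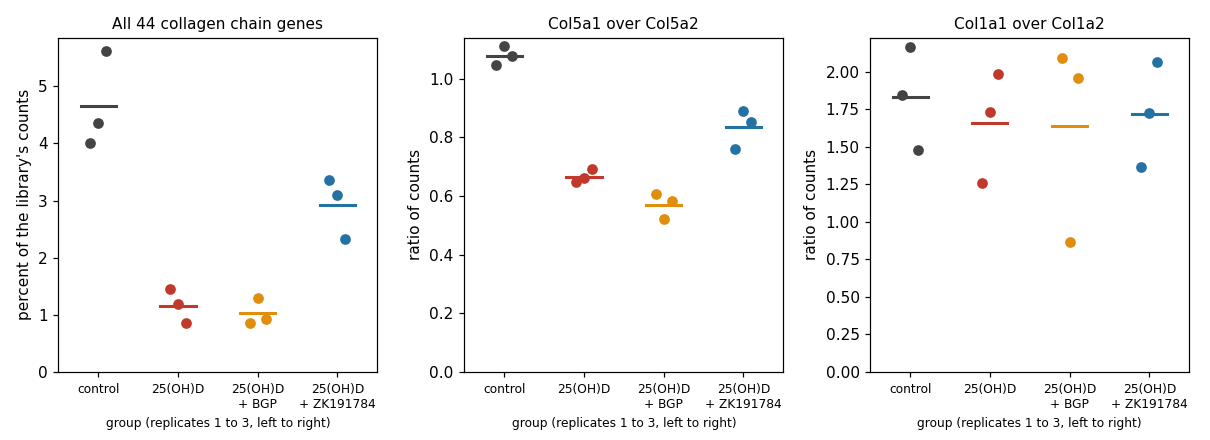
Share of each library's counts in the 44 collagen chain genes (left, percent), and the ratios of counts Col5a1 over Col5a2 (middle) and Col1a1 over Col1a2 (right), by group. Each point is a library, placed from replicate 1 to 3, and each bar the mean of 3. The collagen share was 4.00 to 5.61% in control and 0.850 to 1.46% with 25(OH)D, the Col5a1 ratio separated these groups, and the Col1a1 ratio overlapped across groups.

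Of the 44 genes, 29 had enough counts to be tested among 14394 genes, including all 11 fibrillar chains, 5 network, 5 FACIT, 4 beaded and 4 other chains. The 15 that did not pass the low-count filter had between 4 and 77 counts over the 12 libraries together. Among the type IV chains, Col4a6 had 67 counts, Col4a4 56 and Col4a3 22, and the hypertrophic cartilage gene Col10a1 had 16. The cartilage FACIT chains Col9a2, Col9a3 and Col9a1 had 51, 37 and 7, and Col19a1 had 6. For the type VI chains Col6a6 and Col6a4 the totals were 11 and 10. The transmembrane chains Col17a1, Col23a1 and Col25a1 had 58, 20 and 20, and Col26a1 and Col28a1 had 77 and 4. None of these can carry a comparison at this depth.

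Library totals ran from 3318723 to 5170980 counts. As the check of the cell type, all 10 osteoblast markers were tested, and the control means were 175 CPM (counts scaled to library size, with TMM factors) for Runx2, 49.1 for Sp7, 25.2 for Alpl, 13675 for Ibsp, 1069 for Bglap (whose reads may be split with its near-identical copy Bglap2) and 71819 for Sparc. With 25(OH)D, these means were 83.2, 35.5, 48.1, 92.7, 311 and 12553 CPM. The summed level of the 10 osteoblast markers, which include Col1a1, was 104410 to 127395 CPM in control and 18884 to 20468 with 25(OH)D. It was 15642 to 19212 with added BGP and 57877 to 62386 with ZK191784. Most of the control sum came from Sparc, Col1a1 (27006 CPM on average) and Ibsp, and Alpl alone of the 10 was higher with 25(OH)D. The sum moved with the collagen results below, and its part in them was not tested. Of 11 cartilage markers, 3 were tested (Sox9, Hapln1 and the member Col2a1), and the list summed to 125 to 292 CPM in control and 72.4 to 161 with 25(OH)D. Sox9 gave most of it (122 and 109 on average), beside Hapln1 (32.5 and 4.38) and Col2a1 (31.7 and 1.21). Markers not tested went both ways, with Matn3 higher (0.317 and 1.88) and Comp lower (1.29 and 0.764). Acan, the core protein of cartilage proteoglycan, had 4, 6, 3 and 5 counts in control, 25(OH)D, BGP and ZK191784. Endothelial Cdh5 had 0 counts in all libraries. The list of 6 macrophage and osteoclast markers summed to 284 to 379 CPM in control and 237 to 292 with 25(OH)D, mostly from Ptprc (242 and 182 CPM on average) and Ctsk (74.1 and 73.5), while Adgre1 had 27 counts or fewer in each group. The tendon and ligament fibroblast list of 4 summed to 255 to 506 CPM in control, 95.6 to 176 with 25(OH)D and 189.6 to 327 with ZK191784, nearly all from Fmod, and Tnmd had 0, 2, 0 and 0 counts. Smooth muscle and myofibroblast markers (4 genes) ran the other way, at 296 to 357 CPM in control and 414 to 575 with 25(OH)D, mostly from Acta2. The osteocyte list of 6 summed to 111 to 150.1 CPM in control and 52.0 to 66.1 with 25(OH)D, mostly from Pdpn (99.6 and 54.1 on average). Phex, Mepe and Sost were lower too, while Dmp1 (2.52 and 3.07) and Fgf23 (0.0703 and 0.594) were higher. The endothelial list of 4 summed to 26.2 to 62.6 and 17.1 to 43.3 CPM, mostly from Pecam1 (36.3 and 23.4). For the adipocyte list of 7 the sums were 6.95 to 9.99 and 1.21 to 6.15 CPM. Fabp4 gave most of it in control (5.86, and 0.882 with 25(OH)D), while Adipoq was higher with 25(OH)D (0.0799 and 0.704). Epithelial markers summed to 3.93 CPM or less in every library. The part of these cell types in the collagen results was not tested.

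Most of the collagen chains called with 25(OH)D were lower than in control. Against control, 14 of the 29 tested members fell and 1 rose, which is 51.7% called, where 8.68% of all 14394 tested genes were called (3.93% lower and 4.76% higher). The median log2 fold change of the 29 was −1.14, and that of all tested genes −0.05. The libraries of the groups did not overlap for 18 of the 29, 17 of them lower, where this held for 21.9% of all tested genes and 10.8% were lower. By class, 7 of 11 fibrillar, 2 of 5 network, 1 of 5 FACIT, 2 of 4 beaded and 2 of 4 other chains fell, and the single rise was the FACIT chain Col16a1. Unless stated otherwise, p-values below are edgeR quasi-likelihood p-values with Benjamini-Hochberg adjustment over all 14394 genes, and a gene is called at an adjusted p under 0.05. Differences are log2 fold changes ± SE, and means of CPM are given ± SD (n = 3).

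**Figure D2:**
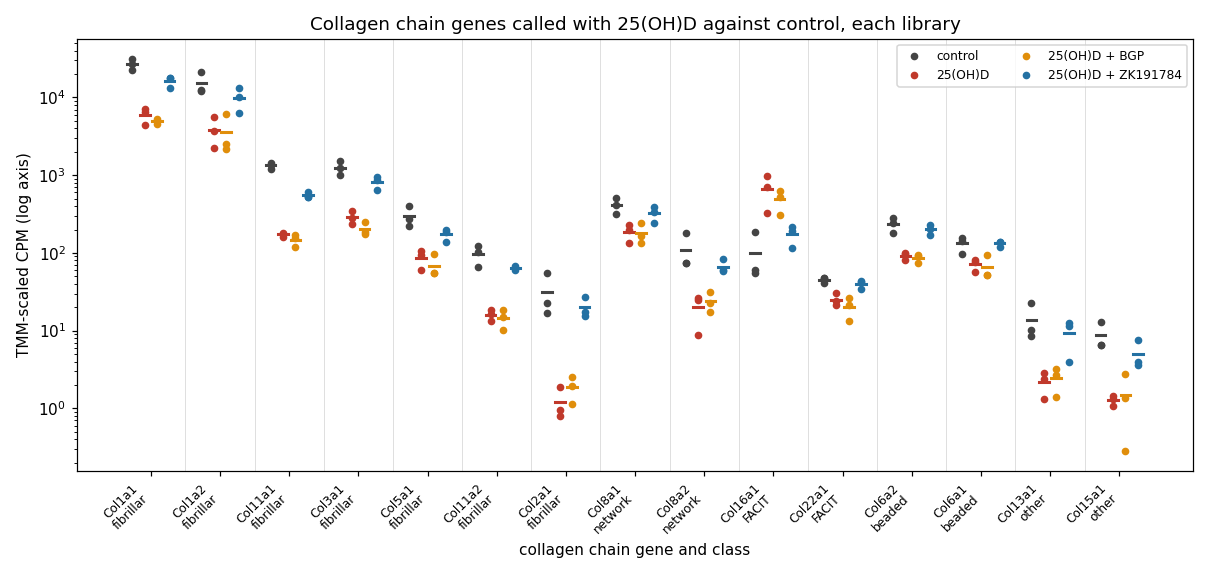
TMM-scaled CPM (log axis) of the 15 collagen chain genes called with 25(OH)D against control, in each of the 12 libraries, ordered by class. Points are libraries and bars group means (n = 3). For 14 genes the 25(OH)D and BGP points lie below the control points, and for Col16a1 they lie above them; ZK191784 points lie mostly in between.

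The sequences upstream of members that moved together are shown for 4 fibrillar chains that fell, beside Col16a1, which rose. RefSeq windows of 300 bases (250 before and 50 after the annotated start, GRCm38.p6) were matched by symbol for 35 of the 44 genes, in 38 windows. Col1a1, Col2a1, Col4a3, Col5a2, Col9a3, Col12a1, Col14a1, Col22a1 and Col26a1 had no entry. Col5a1, a fibrillar chain that fell and is not printed, held 2 GGGCGG and no CCAAT or TATAAA. Each is written 5′ to 3′ along the gene's strand. Capitals mark, on either strand and at any position, the letters CCAAT (of the CCAAT box), TATAAA (of the classical TATA box) and GGGCGG (of the GC box).
Col1a2 (chr6:4505368-4505667, plus strand): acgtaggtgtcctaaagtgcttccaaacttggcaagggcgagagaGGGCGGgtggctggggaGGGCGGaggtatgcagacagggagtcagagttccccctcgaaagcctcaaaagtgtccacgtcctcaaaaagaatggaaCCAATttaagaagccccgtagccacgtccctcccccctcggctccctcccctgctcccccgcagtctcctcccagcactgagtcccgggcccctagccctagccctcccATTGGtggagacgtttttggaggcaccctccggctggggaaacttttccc
Col3a1 (chr1:45311288-45311587, plus strand): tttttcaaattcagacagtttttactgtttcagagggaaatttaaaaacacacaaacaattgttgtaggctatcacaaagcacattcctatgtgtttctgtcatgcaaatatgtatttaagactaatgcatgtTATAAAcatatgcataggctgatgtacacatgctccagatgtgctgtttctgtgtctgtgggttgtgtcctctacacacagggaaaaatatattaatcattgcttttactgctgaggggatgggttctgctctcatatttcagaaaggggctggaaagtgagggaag
Col11a1 (chr3:114030290-114030589, plus strand): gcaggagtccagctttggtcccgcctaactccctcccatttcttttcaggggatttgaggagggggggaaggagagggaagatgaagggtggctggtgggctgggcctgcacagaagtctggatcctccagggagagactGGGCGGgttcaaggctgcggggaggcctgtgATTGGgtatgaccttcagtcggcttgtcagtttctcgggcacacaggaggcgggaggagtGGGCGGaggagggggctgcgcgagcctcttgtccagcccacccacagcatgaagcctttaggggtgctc
Col11a2 (chr17:34038888-34039187, plus strand): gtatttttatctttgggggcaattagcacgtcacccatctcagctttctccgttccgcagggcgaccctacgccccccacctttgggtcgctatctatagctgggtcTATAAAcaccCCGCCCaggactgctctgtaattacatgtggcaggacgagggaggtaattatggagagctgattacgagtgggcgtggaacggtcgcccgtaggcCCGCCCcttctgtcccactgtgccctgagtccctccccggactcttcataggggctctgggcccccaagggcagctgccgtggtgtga
Col16a1 (chr4:130047590-130047889, plus strand): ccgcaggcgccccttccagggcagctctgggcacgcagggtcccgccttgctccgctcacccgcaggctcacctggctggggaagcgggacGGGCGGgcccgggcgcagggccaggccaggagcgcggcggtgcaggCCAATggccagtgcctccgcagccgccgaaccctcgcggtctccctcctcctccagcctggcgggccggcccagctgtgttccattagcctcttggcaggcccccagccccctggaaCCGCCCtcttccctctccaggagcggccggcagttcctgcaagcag
The Col1a2 window held 2 CCAAT and 2 GGGCGG matches, Col3a1 only 1 TATAAA of the marked motifs, and Col11a2 1 TATAAA and 2 GGGCGG. Col11a1, which fell, and Col16a1, which rose, held the same numbers, 1 CCAAT and 2 GGGCGG each. Members that fell had 12 windows, 2 of them of Col6a2 and none of Col1a1, Col2a1 or Col22a1. CCAAT was present in 2 of these 12 (16.7%), against 6 (50%) of the 12 windows of tested members that were not called. It was present in 37.4% of all 32851 windows. TATAAA was present in 25% of the windows of members that fell, in 0% of those not called and in 13.6% of all windows. In the members that fell it began at −117 (Col3a1), −143 (Col11a2) and −237 (Col13a1) bases from the annotated start, and its use as a TATA box was not tested. GGGCGG was present in 66.7% of both kinds of member window and in 35.7% of all windows. The RUNX motif AACCACA was found in no window of a tested member and in 5.27% of all windows. Direct repeats spaced by 3 bases, the arrangement known for the vitamin D receptor, were searched as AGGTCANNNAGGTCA and GGTTCANNNGGTTCA on both strands. Neither was in a member's window, and each was in 0.00609% of all windows. Exact letters this rare could hardly be met in 38 windows, so their absence says nothing about binding of the receptor. These matches describe the letters of short windows only.

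Among the fibrillar chains, both chains of type I fell with 25(OH)D. Col1a1 stood at 22486, 26789 and 31744 CPM in the control libraries and at 7046, 6505 and 4419 CPM with 25(OH)D. Every 25(OH)D library lay below every control library, and the difference was −2.17 ± 0.20 on the log2 scale (4.51-fold lower, edgeR adjusted p = 2.32e-05). Its partner Col1a2 stood at 12163, 12384 and 21420.5 CPM in control and at 5599, 3747 and 2222 with 25(OH)D. These groups did not overlap either, with a difference of −1.99 ± 0.45 (3.97-fold lower, edgeR adjusted p = 0.0142), and the spread of Col1a2 within each group was wider than that of Col1a1. Without 25(OH)D replicate 2 or 3 the adjusted p of Col1a2 was 0.0629 or 0.0579, and with no low-count filter it was 0.131. Since the libraries count 1 tag near the 3′ end of a message, CPM were not divided by gene length when levels of genes are set side by side.

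The type XI chains, which nucleate and thin fibrils of types I and II, both fell. Col11a1 stood at 1457, 1368 and 1207 CPM in control and at 161, 181 and 177 CPM with 25(OH)D, a difference of −2.96 ± 0.16 (7.77-fold lower, edgeR adjusted p = 1.98e-07). For Col11a2 the control libraries gave 102, 124 and 66.8 CPM and the 25(OH)D libraries 16.3, 13.3 and 18.5 CPM. That difference was −2.61 ± 0.26 (6.09-fold lower, edgeR adjusted p = 4.32e-05). Neither chain's groups overlapped. The Col2a1 message, for the chain of cartilage collagen, was low in control at 17.0, 23.0 and 55.0 CPM and lower with 25(OH)D at 1.87, 0.964 and 0.792 CPM. It rested on 411 counts in control and 14 with 25(OH)D, and its difference of −4.68 ± 0.55 (edgeR adjusted p = 0.000131) was the most negative of the 29 tested members. Without control replicate 3, the library with the highest Col2a1, it was −4.01.

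Of the type III and type V chains, which are co-assembled with type I in soft connective tissue and bone, Col3a1 and Col5a1 were called. Whether Col5a2 changed otherwise than these was not tested. Col3a1 fell from 1006, 1221 and 1524 CPM to 283, 344 and 233 CPM (−2.12 ± 0.22, 4.36-fold lower, edgeR adjusted p = 5.69e-05). Col5a1 fell from 223, 274 and 399.9 CPM to 106, 93.5 and 60.0 CPM (−1.79 ± 0.30, edgeR adjusted p = 0.00175). Col5a2, the partner of Col5a1, stood at 213, 247 and 371 CPM in control and at 164, 142 and 86.6 CPM with 25(OH)D. Its groups did not overlap, but the difference of −1.08 ± 0.33 did not pass (edgeR adjusted p = 0.0632). The remaining fibrillar chains did not pass: Col24a1 was 4.92 ± 0.810 CPM in control and 1.81 ± 1.08 with 25(OH)D (adjusted p = 0.140), Col5a3 was 33.5 ± 27.0 and 29.7 ± 12.4 (adjusted p = 0.896), and Col27a1 was 48.8 ± 21.6 and 109.9 ± 40.1 (adjusted p = 0.0885). Col27a1, a fibrillar chain of developing cartilage, was the only one of the 11 fibrillar chains with a positive log2 difference, 1.17 ± 0.38, and its groups overlapped. Col3a1 and Col5a2 are neighbours in the genome, and of this pair Col3a1 was called and Col5a2 was not.

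The ratio of the type V chains moved with the groups, as seen after the values were known and so given with no test. Col5a1 counts divided by Col5a2 counts were 1.05 to 1.11 in control, 0.646 to 0.692 with 25(OH)D, 0.521 to 0.606 with added BGP and 0.760 to 0.889 with ZK191784. No library of control overlapped with a treated one. The ratio of Col1a1 to Col1a2, in contrast, averaged 1.83 ± 0.341 in control, 1.66 ± 0.371 with 25(OH)D, 1.64 ± 0.670 with BGP and 1.72 ± 0.351 with ZK191784 (SD, n = 3), with overlapping ranges. Col11a1 over Col11a2 was 14.5 ± 3.49, 11.03 ± 2.29, 10.8 ± 3.96 and 8.64 ± 0.205 in the same order. The type VIII ratio, Col8a1 over Col8a2, was 2.82 to 5.69 in control, 8.02 to 15.5 with 25(OH)D, 7.16 to 7.81 with BGP and 4.19 to 5.60 with ZK191784, so that the libraries of 25(OH)D with or without BGP lay above all others. Col6a2 over Col6a1 was 1.57 to 1.98 in control and 1.23 to 1.42 with 25(OH)D, and it was 1.00 to 1.75 with BGP and 1.45 to 1.61 with ZK191784, both overlapping control. For Col4a1 over Col4a2, with means of 2.25 ± 0.229, 2.82 ± 0.754, 2.67 ± 0.0614 and 2.01 ± 0.487, the ranges of control and 25(OH)D overlapped.

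Of the network chains, those of type VIII fell and those of type IV did not pass. Type VIII collagen forms hexagonal lattices in membranes below endothelia. Col8a2 was 74.1, 73.3 and 180.3 CPM in control and 26.2, 24.8 and 8.72 CPM with 25(OH)D (−2.45 ± 0.44, 5.47-fold lower, edgeR adjusted p = 0.00309). Col8a1, the more abundant of the pair, was 318, 418 and 509 CPM in control and 230.0, 199 and 135 CPM with 25(OH)D (−1.14 ± 0.27, 2.21-fold lower, edgeR adjusted p = 0.0191). Neither gene's groups overlapped. The Col8a1 call was lost without control replicate 2 (adjusted p = 0.0517) or 3 (0.0507) and without 25(OH)D replicate 2 (0.0620) or 3 (0.0630). The basement membrane chains Col4a1, Col4a2 and Col4a5 stood at 42.2 ± 8.90, 19.1 ± 5.71 and 9.05 ± 4.44 CPM in control and at 41.0 ± 3.83, 15.4 ± 4.86 and 8.29 ± 1.93 CPM with 25(OH)D. Their log2 differences were −0.04 ± 0.25, −0.31 ± 0.31 and −0.12 ± 0.37, with edgeR adjusted p-values of 0.947, 0.648 and 0.892. Col4a1 and Col4a2 start head to head, and their 300-base start windows share 78 bases on opposite strands.

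The FACIT class held both directions. Col16a1, a fibril-associated chain, was 59.9, 55.0 and 186 CPM in control and 968, 695 and 329.9 CPM with 25(OH)D. Every 25(OH)D library was above every control library, and the gene rose by 2.73 ± 0.52 on the log2 scale (6.62-fold higher, edgeR adjusted p = 0.005). Both groups spread widely: without control replicate 3 the difference was 3.54 (adjusted p = 0.00062), and with no low-count filter its adjusted p was 0.0684. Col22a1, known from myotendinous and cartilage junctions, fell slightly, from 48.0, 47.0 and 40.9 CPM to 23.8, 30.1 and 21.1 CPM (−0.85 ± 0.24, 1.81-fold lower, edgeR adjusted p = 0.0439). That call was lost without control replicate 1 (adjusted p = 0.128) or 2 (0.106) and without 25(OH)D replicate 1 (0.140), 2 (0.0599) or 3 (0.118), and also with the replicate block (0.0616), with the groups fitted alone (0.0600) and without the 4 libraries of highest library ratio (0.124). Col12a1, which coats type I fibrils, was 29.8 ± 16.6 CPM in control and 11.4 ± 4.90 with 25(OH)D (−1.39 ± 0.41, edgeR adjusted p = 0.0569), with groups that did not overlap. The rare chains Col14a1 and Col20a1 were 3.37 ± 3.00 and 2.19 ± 2.05 CPM in control and 1.83 ± 1.85 and 1.37 ± 0.416 CPM with 25(OH)D, and neither passed (edgeR adjusted p = 0.636 and 0.678).

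Type VI chains form beaded filaments around cells from an assembly of Col6a1, Col6a2 and a longer chain such as Col6a3. Col6a2 fell from 182, 246 and 283 CPM to 97.1, 99.1 and 80.6 CPM (−1.36 ± 0.19, 2.57-fold lower, edgeR adjusted p = 0.000462). Col6a1, its neighbour in the genome, fell from 98.3, 156 and 143 CPM to 76.8, 80.5 and 56.8 CPM (−0.89 ± 0.25, 1.86-fold lower, edgeR adjusted p = 0.0451). The groups of both genes did not overlap, but Col6a1 lost its call without control replicate 2 (adjusted p = 0.147) or 3 (0.0851), without 25(OH)D replicate 1 (0.100), 2 (0.0927) or 3 (0.125) and with the groups fitted alone (0.0678). Col6a3 was 48.0, 61.8 and 673 CPM in control and 390.5, 143 and 29.8 CPM with 25(OH)D. The spread within each group was larger than the difference between them, −0.47 ± 1.10 (edgeR adjusted p = 0.858). Its level ran with the library ratio described further on, and with that ratio as covariate Col6a3 was called lower (−0.75 ± 0.18, edgeR adjusted p = 0.00567). Col6a5 was 3.11 ± 0.413 CPM in control and 1.40 ± 1.14 CPM with 25(OH)D (edgeR adjusted p = 0.496).

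Among the other chains, the transmembrane chain Col13a1 and the basement-membrane-associated chain Col15a1 fell from low levels. Col13a1 was 10.3, 8.64 and 22.6 CPM in control and 2.41, 2.89 and 1.32 CPM with 25(OH)D (−2.63 ± 0.55, 6.17-fold lower, edgeR adjusted p = 0.00885). For Col15a1 the values were 6.47, 6.53 and 13.1 CPM and 1.07, 1.45 and 1.32 CPM (−2.73 ± 0.59, 6.65-fold lower, edgeR adjusted p = 0.011). The groups of both did not overlap. Col15a1 did not pass without 25(OH)D replicate 1 (adjusted p = 0.0511), nor Col13a1 without the 4 libraries of highest library ratio (0.0540). Col18a1, whose end fragment is endostatin, was 8.39 ± 1.85 CPM in control and 10.5 ± 3.70 CPM with 25(OH)D, and the anchoring-fibril chain Col7a1 was 1.31 ± 1.22 and 2.16 ± 0.495 CPM (edgeR adjusted p = 0.627 and 0.664).

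**Figure D3:**
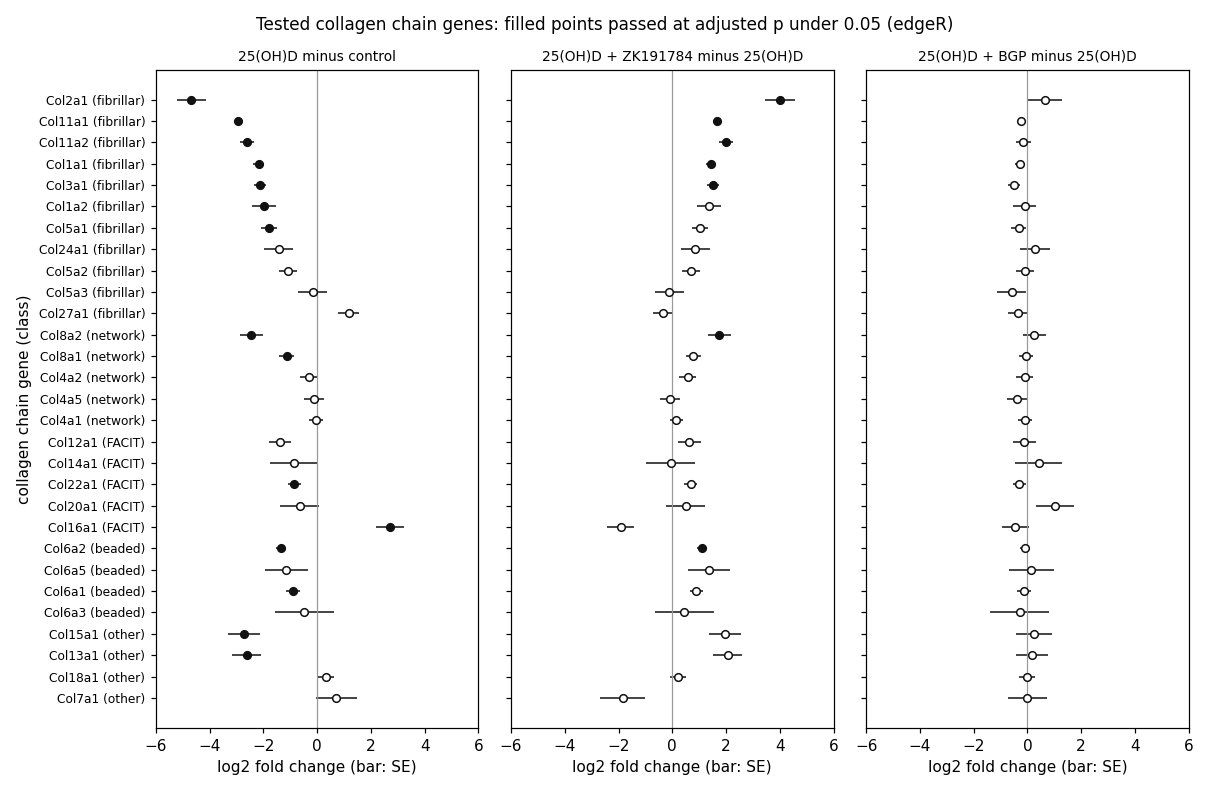
Log2 fold change of each of the 29 tested collagen chain genes, with its SE as a bar, for 25(OH)D minus control (left), 25(OH)D plus ZK191784 minus 25(OH)D (middle) and 25(OH)D plus BGP minus 25(OH)D (right), by class. Filled points passed at an adjusted p under 0.05 (edgeR): 15, 7 and 0 genes. Most fibrillar chains lie left of 0 in the first panel and right of 0 in the second, and no point of the third panel is filled.

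With ZK191784 added to 25(OH)D, 7 collagen chains were higher than with 25(OH)D alone and none was lower, 24.1% of the 29, where 3.53% of all tested genes were called, 1.42% higher and 2.11% lower. The 7 were the fibrillar chains Col1a1, Col2a1, Col3a1, Col11a1 and Col11a2, the network chain Col8a2 and the beaded chain Col6a2, all of which fell with 25(OH)D alone. As both comparisons share the 25(OH)D libraries, a low value there lowers one and raises the other, so that their opposite directions are not independent. The groups did not overlap for 16 of the 29 members, against 17.6% of all tested genes. The median log2 difference was 0.78 over the 29 and 0.02 over all tested genes.

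Col11a1 was 529, 531 and 603 CPM with ZK191784 against 161, 181 and 177 CPM without it, a rise of 1.68 ± 0.15 (3.2-fold, edgeR adjusted p = 4.27e-05). For Col11a2, the ZK191784 libraries gave 60.8, 63.2 and 68.5 CPM, a rise of 2.00 ± 0.26 (4-fold, edgeR adjusted p = 0.000857). Col2a1 stood at 26.8, 17.6 and 15.2 CPM, a rise of 4.02 ± 0.55 from a level of 14 counts in all (edgeR adjusted p = 0.00118). All 3 genes were above every library with 25(OH)D alone. Col1a1 rose to 17955, 17559.9 and 13122 CPM (1.44 ± 0.20, 2.71-fold, edgeR adjusted p = 0.00124), and Col3a1 to 935, 877 and 649.9 CPM (1.51 ± 0.22, 2.86-fold, edgeR adjusted p = 0.00164). Col6a2 rose to 225, 206 and 172 CPM (1.12 ± 0.19, 2.18-fold, edgeR adjusted p = 0.00401). Col8a2 was 82.5, 59.5 and 58.3 CPM (1.74 ± 0.43, 3.35-fold, edgeR adjusted p = 0.0456). The Col8a2 call was the weakest: leaving out 25(OH)D replicate 1, 2 or 3 gave adjusted p-values of 0.0753, 0.104 and 0.109, leaving out ZK191784 replicate 1, 2 or 3 gave 0.151, 0.114 and 0.0899, and the replicate block gave 0.132.

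The other 7 members that fell with 25(OH)D had higher means with ZK191784 but did not pass. Col1a2 was 13143, 10166 and 6343 CPM, above all 25(OH)D libraries (1.36 ± 0.44, edgeR adjusted p = 0.155). Col5a1 was 200.01, 187 and 139.6 CPM (1.02 ± 0.29, edgeR adjusted p = 0.0876), and Col6a1 was 140.2, 139.8 and 118 CPM (0.90 ± 0.25, edgeR adjusted p = 0.0829). Col13a1 was 12.5, 11.6 and 3.91 CPM (2.06 ± 0.55, adjusted p = 0.0695, and 0.0289 without ZK191784 replicate 3). Col8a1, Col15a1 and Col22a1 were 324 ± 75.1, 5.03 ± 2.20 and 40.1 ± 4.70 CPM, with edgeR adjusted p-values of 0.197, 0.123 and 0.205. Of these 7, DESeq2 called Col5a1, Col6a1, Col13a1 and Col15a1 (adjusted p = 0.0294, 0.0269, 0.011 and 0.0384) and not Col1a2, Col8a1 and Col22a1 (0.0514, 0.128 and 0.122). Col16a1 had 216, 193 and 117 CPM with ZK191784, each below every library with 25(OH)D alone, yet the difference of −1.92 ± 0.50 did not pass (edgeR adjusted p = 0.0637, and 0.0407 without 25(OH)D replicate 3). With DESeq2 its adjusted p was 0.00399. The type IV chains did not pass: Col4a1 was 45.7 ± 11.05 CPM, Col4a2 23.0 ± 3.63 and Col4a5 7.89 ± 2.19 (edgeR adjusted p = 0.951, 0.565 and 0.984). Of these Col4a2, at 0.58 ± 0.31, was called higher with the library ratio as covariate (0.61, edgeR adjusted p = 0.0486). Among the fibrillar chains not called with 25(OH)D, Col5a2 was 263, 210.0 and 164 CPM with ZK191784, Col27a1 86.5 ± 24.0, Col5a3 27.6 ± 8.37 and Col24a1 3.28 ± 1.84 (edgeR adjusted p = 0.443, 0.902, 0.982 and 0.677). Col12a1 was 17.7 ± 4.36 CPM and Col18a1 12.1 ± 2.62, while Col6a3 spread from 83.5 to 434 CPM (edgeR adjusted p = 0.690, 0.941 and 0.971). With the covariate Col6a3 was called higher (0.92 ± 0.18, edgeR adjusted p = 0.00133). The rare FACIT chains Col14a1 and Col20a1 were 1.73 ± 1.19 and 1.95 ± 1.04 CPM (edgeR adjusted p = 0.994 and 0.936). Of the other rare members, Col7a1 was 0.559 ± 0.518 CPM and Col6a5 3.59 ± 1.86 CPM (edgeR adjusted p = 0.420 and 0.622).

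Compared directly with control, 1 of the 29 members was lower with 25(OH)D plus ZK191784 and none was higher, where 0.723% of all tested genes were called, 0.215% lower and 0.507% higher. This was Col11a1, at −1.28 ± 0.15 (2.42-fold lower, edgeR adjusted p = 0.0012), with 529 to 603 CPM against 1207 to 1457 in control. Of the 14 members that fell with 25(OH)D, 13 had a ZK191784 mean between the means of 25(OH)D and control, and Col6a1 had 133 CPM in both ZK191784 and control. These 14 were picked for low values with 25(OH)D, which favours such an order. Its share among all genes that fell was not counted, so the 13 are no result about collagens. Col1a1, at −0.74 ± 0.20, Col3a1, at −0.61 ± 0.21, and Col5a1, at −0.77 ± 0.29, had every ZK191784 library below every control library without passing (edgeR adjusted p = 0.166, 0.444 and 0.514). These p-values do not show that the groups were alike.

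No collagen chain passed the test when BGP was added to 25(OH)D. Of the 29 members 0 were called against 25(OH)D alone, where 0% of all tested genes were called by edgeR, and DESeq2 called 0 members too. At an unadjusted p under 0.05 there was 1 member, Col3a1 (174, 252 and 186 CPM, −0.49 ± 0.21), where 1.86% of all tested genes met that mark. No member had groups that did not overlap, against 6.04% of all tested genes. Col1a1 was 4519.9, 5328 and 4952 CPM and Col11a1 168, 120.3 and 157 CPM, overlapping with 25(OH)D alone. For Col1a2 the libraries with BGP gave 2161, 6129 and 2531 CPM, for Col2a1 1.12, 2.57 and 1.93, and for Col11a2 18.5, 14.99 and 10.2. Among these BGP replicate 2, the library of highest library ratio in its group, was the highest for Col1a2 and Col2a1. Col16a1 was 308, 524 and 634 CPM, a difference of −0.44 ± 0.49. Col5a1, Col8a1 and Col8a2 were 68.7 ± 23.7, 181 ± 55.5 and 23.8 ± 6.87 CPM with BGP, Col6a1 and Col6a2 65.6 ± 24.0 and 85.9 ± 11.1, and Col22a1, Col13a1 and Col15a1 20.4 ± 6.59, 2.44 ± 0.933 and 1.47 ± 1.26. The chains not called with 25(OH)D stood at 38.4 ± 12.3 CPM for Col4a1, 14.3 ± 4.26 for Col4a2, 6.35 ± 0.850 for Col4a5, 19.6 ± 9.26 for Col5a3, 86.8 ± 34.1 for Col27a1 and 10.4 ± 1.79 for Col18a1. Below 3 CPM on average were Col24a1 (2.20 ± 0.277), Col20a1 (2.86 ± 1.47), Col14a1 (2.48 ± 1.18), Col7a1 (2.13 ± 0.513) and Col6a5 (1.46 ± 1.45), and Col6a3 ran from 35.3 to 314 CPM. Log2 differences over the 29 ran from −0.59 (Col5a3) to 1.03 (Col20a1), with SEs from 0.15 (Col11a1) to 1.10 (Col6a3), so that the size of difference that could be seen varied by gene.

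Against control, the group with 25(OH)D plus BGP showed 16 members lower and 1 higher, where 8.25% of all tested genes were called, 4.35% lower and 3.9% higher. This comparison shares the control libraries with that of 25(OH)D alone, and so repeats their values. It held the 14 members that fell and the 1 that rose with 25(OH)D, and added Col12a1 (8.98, 13.5 and 8.87 CPM, −1.51 ± 0.41, edgeR adjusted p = 0.0403) and Col5a2 (91.2, 185 and 93.9 CPM, −1.17 ± 0.33, edgeR adjusted p = 0.0462). Col11a1 was −3.18 ± 0.16 and Col1a1 −2.45 ± 0.21 here, against −2.96 ± 0.16 and −2.17 ± 0.20 with 25(OH)D alone. Without BGP replicate 3 the count of called members was 10, where that fit called 5.31% of all 14956 genes it tested.

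Many collagen chains also varied within groups, together with a property of the library that did not follow treatment. This was measured as the log2 of ribosomal protein counts over summed Gm-numbered and ribosomal pseudogene counts (the library ratio), which ranged from −1.78 to −0.44 over the libraries and averaged −1.34 ± 0.666 in control, −1.11 ± 0.653 with 25(OH)D, −1.07 ± 0.605 with BGP and −1.16 ± 0.396 with ZK191784. Of the 29 tested members, 20 rose and 4 fell with this ratio within groups (edgeR adjusted p under 0.05), where 51.4% of all tested genes were called in either direction. The steepest of the 29 was Col6a3, at 2.85 log2 units per unit of ratio, with 673 CPM in the control library of highest ratio and 48.0 and 61.8 CPM in the other control libraries. Col1a2 had a slope of 1.03 and Col1a1 of 0.36, while Col11a1 ran the other way at −0.23 and was lowest in the library of highest ratio in all 4 groups. In contrast, Col1a1 and Col1a2 were highest there in all 4 groups. The origin of this axis was not tested.

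**Figure D4:**
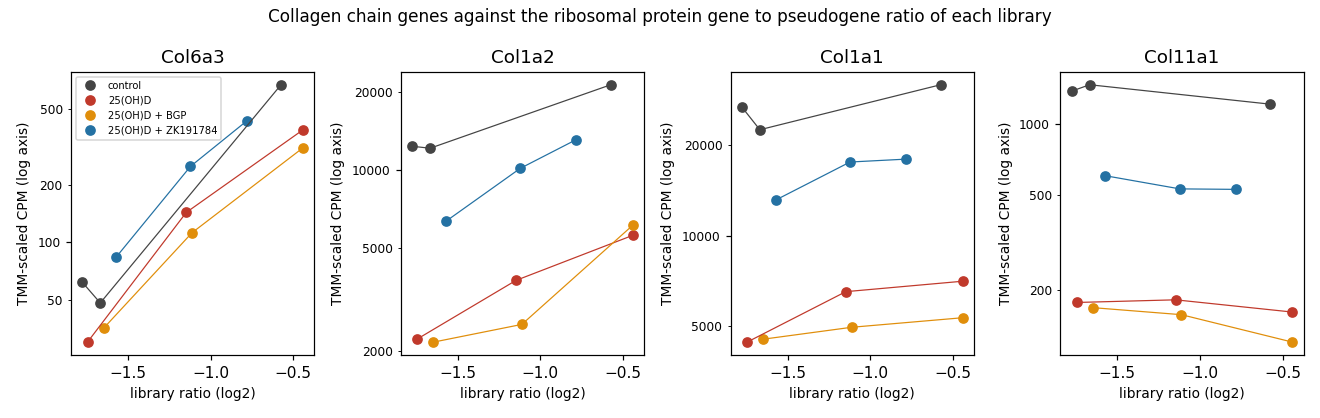
TMM-scaled CPM (log axis) of Col6a3, Col1a2, Col1a1 and Col11a1 against the library ratio (log2), the ribosomal protein counts of each library over its Gm-numbered and ribosomal pseudogene counts; points are libraries, lines join the 3 libraries of a group. Col6a3 is highest in the library of highest ratio in each group, and its CPM ranges overlap between groups. For Col11a1 the control libraries (1207 to 1457 CPM) and the ZK191784 libraries (529 to 603) lie apart from each other and from the rest, and those of 25(OH)D with and without BGP overlap.

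With that ratio as a covariate in the fit, 20 of the 29 members were called with 25(OH)D against control, 19 with ZK191784 against 25(OH)D alone, 12 with ZK191784 against control and 0 with BGP against 25(OH)D. The same fit called 19.8, 11.4, 4.66 and 0.0417% of all tested genes in these comparisons. The 5 members it added with 25(OH)D against control were Col5a2, Col6a3, Col12a1 and Col24a1, lower, and Col27a1, higher. Among the 12 it added for ZK191784 against 25(OH)D were Col1a2 (1.45, edgeR adjusted p = 1.78e-10), Col5a1 (1.07, edgeR adjusted p = 1.81e-08) and Col16a1 (−1.79, edgeR adjusted p = 0.000436). Without the 4 libraries of highest ratio, 1 from each group, 16 members were called with 25(OH)D against control and 9 with ZK191784 against 25(OH)D, where that fit called 7.47 and 2.76% of all 14552 genes it tested.

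The genes that make, process and bind collagen changed in both directions. Of 26 tested genes for chain synthesis and folding, 2 rose and 5 fell with 25(OH)D, with a median log2 difference of −0.64. The 2 that rose were Plod1, a lysyl hydroxylase (0.95 ± 0.18, edgeR adjusted p = 0.005, named after its value was seen), and Mrc2, which takes up collagen rather than making it and is counted among the receptors too. Those of smallest p were Fkbp7 and Fkbp10, peptidyl-prolyl isomerases of the endoplasmic reticulum that help fold procollagen, which fell by 1.58 and 1.01 on the log2 scale (edgeR adjusted p = 9.05e-05 and 0.000904), and Mrc2, which rose by 2.82 ± 0.48 (6.37 ± 3.62 to 45.2 ± 15.5 CPM). Of 6 tested crosslinking enzymes 2 rose and 1 fell. The transglutaminase Tgm2 rose from 4.54 ± 0.716 to 212 ± 34.8 CPM (5.53 ± 0.23, edgeR adjusted p = 3.6e-08) and Loxl2 from 0.830 ± 0.518 to 7.01 ± 0.812 CPM, while lysyl oxidase, Lox, fell from 1292 ± 194 to 877 ± 79.7 CPM (−0.56 ± 0.13, edgeR adjusted p = 0.0197). Of 7 tested genes for the trimming of procollagen ends 2 rose and 2 fell. Pcolce and Pcolce2, which enhance removal of the C-terminal propeptide, fell by 1.35 and 3.63 on the log2 scale (edgeR adjusted p = 3.22e-05 and 0.000205), and the protease Mep1a rose by 3.62 (edgeR adjusted p = 0.000253).

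Among 10 tested cell receptors for collagen 3 rose and 2 fell. The integrin chain Itga1 rose from 66.1 ± 6.71 to 451 ± 43.1 CPM (2.77 ± 0.15, edgeR adjusted p = 2.3e-07), and the receptor kinase Ddr2 from 289 ± 32.9 to 690.2 ± 37.7 CPM (1.26 ± 0.13, edgeR adjusted p = 4.32e-05). Mrc2, which stands in this list too, was the third. Of 20 tested matrix partners 2 rose and 6 fell, with Thbs2 at −2.08 ± 0.13, the collagen-binding Sparc at −2.52 ± 0.24 and Prelp, a leucine-rich proteoglycan, at 1.94 ± 0.30 (edgeR adjusted p = 9.34e-07, 2.32e-05 and 0.00111). Of 9 tested collagen-cleaving proteases and their inhibitors 2 rose and 0 fell, namely Mmp8 at 1.45 ± 0.29 and Fap at 0.96 ± 0.22 (edgeR adjusted p = 0.00638 and 0.0138). For comparison, 8.68% of all tested genes were called, and their median difference was −0.05.

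With ZK191784 against 25(OH)D alone the same lists, in that order, had 2, 0, 2, 1, 3 and 1 genes that rose and 1, 1, 0, 2, 1 and 1 that fell. These were of 26, 6, 7, 10, 20 and 9 tested genes, where 3.53% of all tested genes were called, 1.42% higher and 2.11% lower. With BGP against 25(OH)D alone none was called in any list, nor among all tested genes (0%). In the ZK191784 comparison with 25(OH)D alone, Fkbp7 and Fkbp10 rose by 0.96 ± 0.17 and 0.69 ± 0.15, and Pcolce and Pcolce2 by 1.02 ± 0.13 and 2.41 ± 0.45 (edgeR adjusted p = 0.00715, 0.0231, 0.000809 and 0.00966). In that comparison Tgm2, Itga1 and Ddr2 fell by 2.47, 1.68 and 1.05 on the log2 scale (edgeR adjusted p = 1.71e-05, 3.25e-05 and 0.000498). Lox was 813 ± 29.4 CPM with ZK191784 and 877 ± 79.7 CPM without, a difference of −0.11 ± 0.13 that did not pass (edgeR adjusted p = 0.917). Fap rose further, by 0.89 ± 0.21 to 171 ± 30.2 CPM (edgeR adjusted p = 0.0389), while Mmp8 fell by 1.20 (edgeR adjusted p = 0.0358).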

How the data were processed

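RNA of 12 MC3T3-E1 libraries was counted per gene with a QuantSeq 3′ kit. The values are whole-number counts per gene symbol as deposited by the authors. Per the submitters' processing notes, the tools were STAR 2.7.9a and featureCounts (Subread 2.0.3), with mm39 as genome build; DESeq2 1.38.2 is listed too, with no role. The strand setting, the annotation release and any filter were not given in the sources used here; therefore reads of overlapping and antisense genes cannot be told apart. Of the entries, 882 had a repeated symbol, none of them a collagen gene.

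Low counts were removed by filterByExpr of edgeR (a minimum count of 10 and a minimum total of 15), and 14394 of 56691 entries, holding 99.4% of the counts, were tested. A quasi-likelihood model with TMM scaling and robust dispersion was fitted to all 12 libraries in edgeR 4.0.16 (R 4.3.3), with 1 coefficient per group. The p-values were adjusted over all genes tested (Benjamini-Hochberg) and called under 0.05. SEs are approximate, from the log2 fold change and the F statistic (its absolute value over the root of F). Totals of 3318723 to 5170980 counts per library set the precision, and the common biological coefficient of variation was 0.292. All members were named: those called in a main comparison with values by library, the others by group, rare ones by summed counts, and from each of 6 lists of the collagen pathway at most 3 called genes of smallest p with 25(OH)D. The members were taken by symbol alone, but the choice of this gene family, the lists and the markers was made with earlier results of these data known. Tested on simulated data of 14394 genes, the fit found 2-fold changes in 23, 20 and 24% of cases and those of 4-fold in 79, 79 and 82%, for 25(OH)D against control, BGP against 25(OH)D and ZK191784 against 25(OH)D. Wrong calls numbered 3, 4 and 7. Alternatives were RLE scaling, DESeq2 1.42.0, no filter, a filter at 2 CPM in 3 libraries, the replicate number as a block, only the 2 groups compared, the library ratio as a covariate and each library left out; leaving out the 4 libraries of highest ratio was added after the data were seen. Promoter windows are from RefSeq (GRCm38.p6) and serve for sequence only. Python 3.11.15 and matplotlib 3.10.9 made the figures.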

Additional observations from a re-analysis of the deposited data

How the results depend on the processing

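The count of collagen chains called with 25(OH)D against control was 15, and 11 to 15 when 1 library was left out. With RLE, DESeq2, no filter, the CPM filter and the groups fitted alone it was 15, 18, 16, 15 and 13. The share of all tested genes called was 8.68% in the main fit and 5.42 to 8.46% with 1 library left out. In the order of these settings it was 8.86, 11.5, 3.6, 8.59 and 5.8%. For ZK191784 against 25(OH)D, 7 members were called, and 12 with DESeq2, 13 with no low-count filter and 19 with the library ratio as covariate (6 to 7 with 1 library left out). Of all genes tested 3.53% were called, and 5.54, 1.67 and 11.4% under these settings, the unfiltered fit testing 36479 genes. With 1 library left out, 1.8 to 2.87% of all genes were called. For ZK191784 against control the count was 1, and 2 with DESeq2, 3 with no filter and 12 with the covariate, where 0.723% of all genes were called, and 1.83, 0.603 and 4.66%. For BGP with 25(OH)D against control the count was 17, and 10 to 16 with 1 library left out, the lowest without BGP replicate 3. Of all genes tested 8.25% were called there, and 5.31 to 7.64% with 1 library left out. For BGP against 25(OH)D the count of members was 0 under each alternative. The cause of these differences was not tested.

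With the replicate number as a block the counts were 14, 0, 6, 14 and 1 in the order 25(OH)D against control, BGP against 25(OH)D, ZK191784 against 25(OH)D, BGP against control and ZK191784 against control. That fit called 6.62, 0, 2.32, 6.25 and 0.389% of all tested genes, where the main fit called 8.68, 0, 3.53, 8.25 and 0.723%. The labels say no more of the replicate numbers, and same-numbered libraries of different groups deviated with correlations from -0.721 to 0.628 over 18 pairs. In the same order of comparisons 0, 2, 5, 2 and 0 of 6 libraries correlated best with their own number. For ZK191784 and 25(OH)D, where this was 5, the 3 pair correlations ran from 0.00624 to 0.628, so that not every pair deviated together.

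Of 840 single-gene values under alternatives, 747 kept direction and side of the threshold, 50 were no longer past it, 36 newly passed it and 7 turned sign. The 7 were of genes not called. Col6a1 with ZK191784 against control was 0.00 and became -0.0066 with RLE, -0.0066 with DESeq2 and -0.0722 with the covariate. It was -0.18 to 0.13 with 1 library left out. Col2a1 in that comparison was -0.67, and -0.97 to 0.013 with 1 library left out.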
